A study of Mus musculus with 2 samples.

Results

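Aurora kinases, the kinases that work beside them and the spindle checkpoint were followed through mouse spermatogenesis. The 10 genes are Aurka, Aurkb, Aurkc, Incenp, Plk1, Bub1, Bub1b, Cdc20, Mad2l1 and Ttk. They were chosen by symbol, and all 10 are among the 20476 genes of the deposited table. Droplet-based single-cell RNA sequencing was run with a 10x Genomics 3′ kit on total testicular cells, freed of debris by sorting, of adult mice of the strain given as C57BL/CJ;ICR. There was 1 library from wild-type mice and 1 from miR-202-/- mice, with that microRNA gene knocked out. The number of mice behind each library and the nature of the deleted allele are not given in the sources used here.

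The table joins both libraries, and a barcode name ends in 1 or 2, called its mark here. No source states which mark is which genotype. Values are therefore given for mark 1 and mark 2 side by side, without a genotype. Each mark was taken to be 1 library, which no source states. The marks are not replicates of a condition, so no p-value was computed. All intervals are exact 95% intervals that cover counting error only.

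As background, chromosome segregation is run by a small set of kinases. AURKA works at centrosomes and spindle poles and is activated with the help of other spindle proteins, while AURKB and its germline relative AURKC form the chromosomal passenger complex with the scaffold INCENP and correct faulty attachments of kinetochores to microtubules. PLK1, the main Polo-like kinase, promotes entry into division, centrosome maturation and cytokinesis. The checkpoint holds anaphase back until every kinetochore is attached: TTK (MPS1) and BUB1 start the signal, and MAD2L1 and BUB1B (BUBR1) bind CDC20. Free CDC20 activates the anaphase-promoting complex, the ubiquitin ligase that lets chromosomes separate. In the testis this machinery serves the mitoses of spermatogonia and then the 2 meiotic divisions, and AURKC is known for its part in male meiosis.

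All 10 genes are protein-coding in GENCODE M21 on GRCm38. Aurka lies at chr2:172356190-172370535 on the reverse strand, Bub1 at chr2:127801122-127831865 on the reverse strand and Bub1b at chr2:118598211-118641591 on the forward strand. Plk1 lies at chr7:122159439-122169873 and Aurkc at chr7:6995300-7003091, both on the forward strand. Aurkb lies at chr11:69045647-69051664 on the forward strand and Incenp at chr19:9872296-9899551 on the reverse strand. Cdc20 lies at chr4:118432901-118437352 on the reverse strand, Mad2l1 at chr6:66535390-66547220 on the forward strand and Ttk at chr9:83834689-83872389 on the forward strand.

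The DNA just before the starts of these genes is shown, from the RefSeq promoter table on GRCm38.p6. That source held 8 of the 10 genes, all but Aurkb and Incenp. Whether these sequences have a part in the levels was not tested. Each line gives the 75 bases before the start, 5′ to 3′ on the gene's strand, for the 5 genes with a CCAAT box there and for Aurkc, which has none in this window. The starts are RefSeq's. Those of Aurka, Plk1, Cdc20, Bub1 and Aurkc differ from the GENCODE gene ends above, and that of Ttk does not. The whole Aurkc stretch lies within the GENCODE gene. So do the last bases of the Bub1 stretch and those of Cdc20, with its last CCAAT. Capitals mark CCAAT, the core of the site of the factor NF-Y, on either strand.
Aurka (chr2:172370571-172370645): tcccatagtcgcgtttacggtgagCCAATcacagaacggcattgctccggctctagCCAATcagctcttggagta
Plk1 (chr7:122159360-122159434): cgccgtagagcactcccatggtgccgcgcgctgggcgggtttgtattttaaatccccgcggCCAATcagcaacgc
Cdc20 (chr4:118437344-118437418): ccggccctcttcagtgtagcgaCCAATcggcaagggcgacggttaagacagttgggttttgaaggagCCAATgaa
Bub1 (chr2:127831860-127831934): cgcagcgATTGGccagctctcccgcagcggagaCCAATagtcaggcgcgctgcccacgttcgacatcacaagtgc
Ttk (chr9:83834614-83834688): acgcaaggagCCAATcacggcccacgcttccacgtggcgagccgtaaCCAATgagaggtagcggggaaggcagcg
Aurkc (chr7:6995310-6995384): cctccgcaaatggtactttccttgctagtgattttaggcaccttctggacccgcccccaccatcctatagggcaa

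CCAAT, searched on both strands of the 120 bases before the start, was found in 6 of the 8 promoters and in 21.3% of the 32851 promoters of the table. Over the whole 300 bases of each entry it was in 7 of 8, against 37.4%. TTTGAA, the common form of the cell cycle homology region known from promoters of division genes, was found on either strand within the 300 bases in 5 of 8 genes against 17.9%. The same 5 genes held it within 50 bases of the start on either side, against 4.94% of all promoters. In the 120 bases before the start it was in 1 of 8, Cdc20, against 7.12%. The matches of Aurka, Plk1, Bub1b and Ttk lay after the start. These 5 stretches follow, with the 6 bases in capitals and, for Ttk, the match on the opposite strand.
Aurka (chr2:172370527-172370544): agaaccTTTGAAttgtaa
Plk1 (chr7:122159459-122159476): gccgcgTTTGAAttcggg
Cdc20 (chr4:118437350-118437367): ttgggtTTTGAAggagcc
Bub1b (chr2:118598245-118598260): gttaaaTTTGAAactt
Ttk (chr9:83834690-83834707): ggaaatTTCAAAcgtgtt

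The other strings searched on both strands of the 300 bases were TTTAAA (2 of 8 genes, 13.2% of promoters), CACGTG (1 of 8, 7.15%), TAACGG (1 of 8, 2.76%), AACTG (4 of 8, 44.8%) and TTCGAA (2 of 8, 1.56%). Mad2l1 and Aurkc held neither TTTGAA nor CCAAT before the start. A match describes letters in a window and is not a measured site.

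Germ cells were placed in 9 stages by cuts on summed marker UMIs (unique molecular identifiers, counted molecules), with no member among the markers. Of 28245 barcodes, 9938 (35.2%) fell into a stage and 12 of these into 2. The stages held 49 barcodes gated as undifferentiated spermatogonia, 136 as differentiating spermatogonia, 140 as preleptotene, 164 as leptotene to zygotene, 747 as pachytene, 382 as late meiotic, 1383 as early round, 1220 as later round and 5729 as elongating spermatids. The late meiotic gate rests on Ccna1 (cyclin A1, of late spermatocytes), Ovol2 and Spdya and is called Ccna1-high, because none of the 5 other markers listed for diplotene and dividing cells was highest in it. Over all stages, 12 of the 43 listed markers that no gate used were highest in their own stage, 5 of them of the 6 for leptotene to zygotene. None of the 3 for preleptotene was, nor the 1 for each kind of spermatogonia. A stage name therefore stands for its gate, and a barcode for a cell like that stage.

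Depth set the precision. Median UMIs per barcode ran from 8248 in leptotene to zygotene to 35751 in pachytene, and was 4636.5 in the 1100 barcodes gated as Sertoli cells, the somatic support cells used as background. The marks share 73 barcode sequences. The share of free RNA, estimated from protamine and transition protein UMIs, was 26.1% to 38.4% in the first 4 stages and 12.5% to 15.3% from pachytene to early round spermatids. The same estimate came to 135% in Sertoli barcodes, so it is a rough figure. The profile of free RNA was taken from 7807 barcodes in no gate with fewer than 4500 UMIs, called ungated low-UMI barcodes. Levels are counts per 1000000 UMIs of the stage (CPM), each under mark 1 and then mark 2.

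Aurka and Plk1, the kinases of the spindle poles and of entry into division, were highest in Ccna1-high barcodes, between pachytene and round spermatids. Aurka had 56.1 and 61.6 CPM in undifferentiated spermatogonia, 74.0 and 91.9 in differentiating spermatogonia, 60.9 and 80.9 in preleptotene, and 83.7 and 110.6 in leptotene to zygotene. It then stood at 155 and 143.5 in pachytene, 430.1 and 455 in Ccna1-high barcodes, 83.9 and 99.2 in early round, 40.9 and 47.7 in later round and 32.6 and 36.2 in elongating spermatids. The Ccna1-high values were the highest under both marks, then pachytene. Of the next 6 stages in pooled order, from leptotene to zygotene down to later round spermatids, adjacent ones did not differ by interval. Early and later round spermatids, not adjacent in that order, did differ, at 93.4 and 44.1 CPM pooled. Sertoli barcodes had 95.5 and 103.5 CPM, above both kinds of spermatogonia. Their free RNA estimate was far above those of the stages up to early round spermatids, and its part in this level was not tested. The ungated low-UMI barcodes had 130.3 and 148.8 CPM, close to the pachytene level. With the free RNA profile subtracted, pooled Aurka was 29.9 to 65.9 CPM in the first 4 stages and 483.8 in Ccna1-high barcodes. Per barcode, Aurka had 17.0 UMIs in Ccna1-high barcodes and 0.567 in Sertoli barcodes.

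Plk1 had 46.2 and 42.9 CPM in undifferentiated and 94.2 and 80.6 in differentiating spermatogonia, 55.6 and 90.1 in preleptotene, and 35.1 and 32.3 in leptotene to zygotene. It was lowest before elongation in pachytene, at 21.7 and 24.7 CPM, below the 37.7 and 44.5 of Sertoli barcodes. In Ccna1-high barcodes it had 164.6 and 166.4 CPM, and in early round spermatids it had 93.8 and 94.9. It had 40.9 and 45.3 CPM in later round and 14.3 and 14.5 in elongating spermatids. The marks lay close together from leptotene on, and Plk1 had 2 maxima, in differentiating spermatogonia or preleptotene and in Ccna1-high barcodes.

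The chromosomal passenger genes divided into an early and a late pattern. Aurkb had 66.0 and 50.9 CPM in undifferentiated and 89.2 and 70.5 in differentiating spermatogonia, then 34.6 and 44.4 in preleptotene and 4.52 and 7.68 in leptotene to zygotene. The latter levels rest on 4 and 5 UMIs and lay at the 8.08 and 9.51 CPM of Sertoli barcodes. Aurkb had 18 and 10.7 CPM in pachytene, which was not called higher than leptotene to zygotene. The mark 2 level there was close to that of Sertoli barcodes, and the ungated low-UMI barcodes had 13.4 and 13.9 CPM. Aurkb then had 45.7 and 52.0 CPM in Ccna1-high barcodes, 6.72 and 6.59 in early round, 3.59 and 3.56 in later round and 3.26 and 2.81 in elongating spermatids. Incenp, the scaffold on which the Aurora kinase is held, also was high in spermatogonia and in Ccna1-high barcodes, but differed from Aurkb in pachytene against leptotene to zygotene, with uncalled ratios of 0.703 and 0.604 beside 3.97 and 1.39 for Aurkb. Incenp had 210.8 and 161.2 CPM in differentiating spermatogonia, 63.3 and 56.8 in leptotene to zygotene, 44.5 and 34.3 in pachytene and 113.3 and 106.8 in Ccna1-high barcodes. Its pooled levels in undifferentiated spermatogonia, preleptotene and Ccna1-high barcodes (127.2, 122.2 and 110.4 CPM) did not differ beyond their intervals.

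Aurkc, the germline kinase, was hardly counted before pachytene. It had 3 and 3 UMIs in undifferentiated spermatogonia, 2 and 4 in differentiating spermatogonia, 9 and 7 in preleptotene and 8 and 4 in leptotene to zygotene. These counts give 2.03 to 9.90 CPM, below the 19.2 and 17.7 CPM of Sertoli barcodes, so no expression can be read from them. In pachytene it had 38.4 and 29.7 CPM, in Ccna1-high barcodes 59.7 and 67.2, in early round 29.2 and 28.3, in later round 19.3 and 19.3 and in elongating spermatids 6.55 and 7.05. Pachytene, Ccna1-high and early round barcodes were above the Sertoli level under both marks, and later round spermatids were close to it. The ungated low-UMI barcodes had 24.5 and 25.6 CPM, not far below early round spermatids and pachytene under mark 2. The pachytene level was unevenly spread within that gate, as given below, and most of its barcodes lay in a part close to the Sertoli level.

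**Figure D1:**
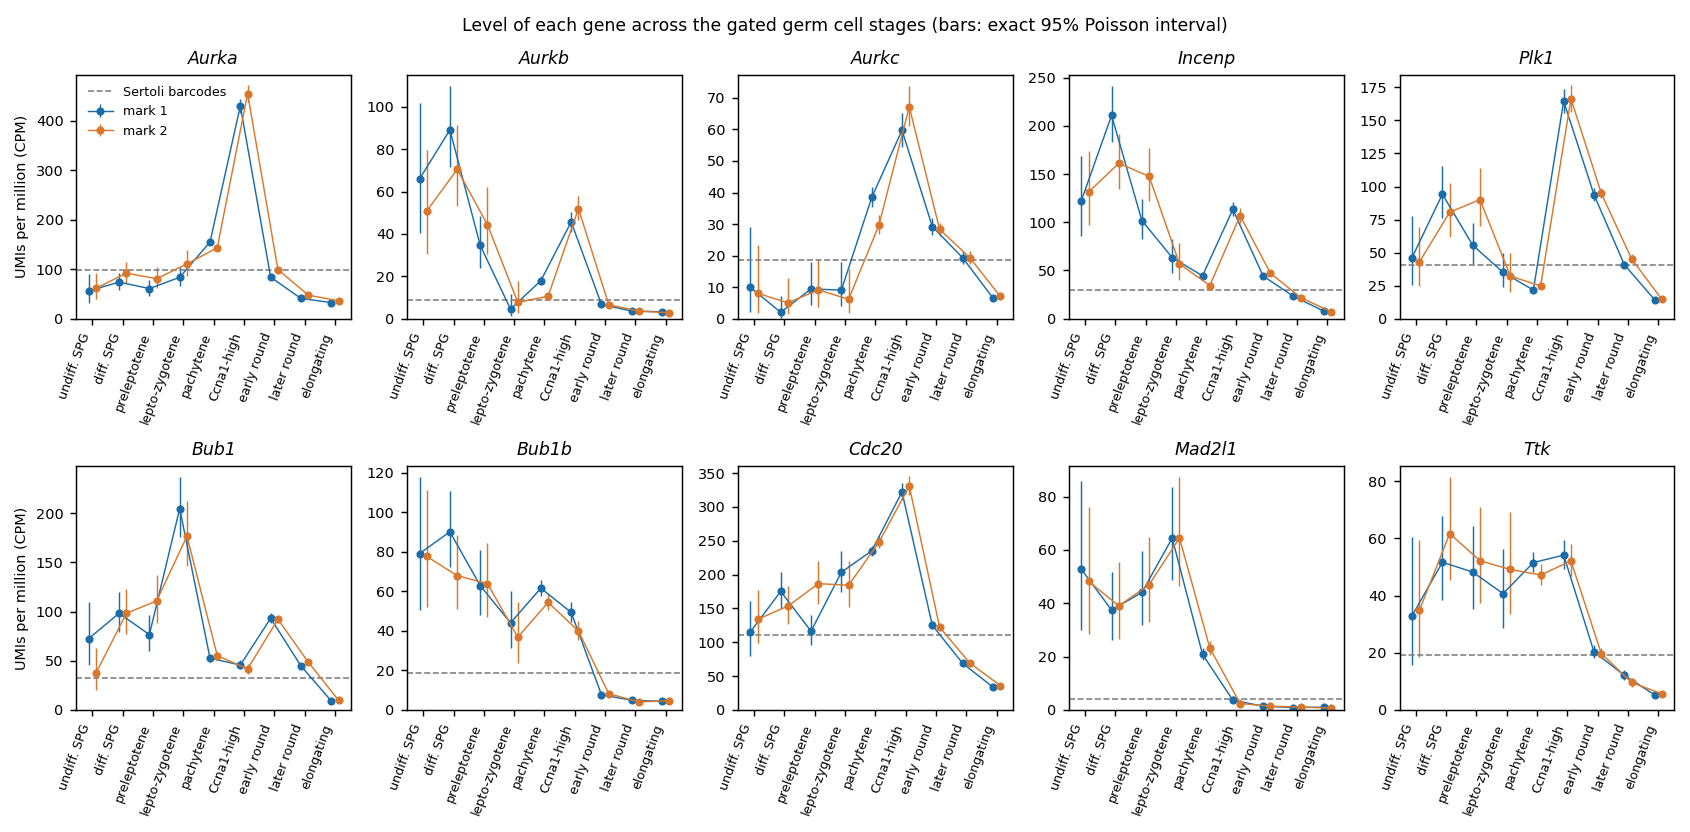
Level of each of the 10 genes in CPM (linear axes from 0) over the 9 gated stages, for mark 1 in blue and mark 2 in orange, with exact 95% Poisson intervals; the dashed line is the pooled level in Sertoli barcodes, and SPG stands for spermatogonia. Aurka, Plk1, Aurkc and Cdc20 have their highest point in Ccna1-high barcodes, Bub1 and Mad2l1 in leptotene to zygotene.

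Of the checkpoint genes, Cdc20 also was highest in Ccna1-high barcodes, and so was Ttk under mark 1, while Bub1, Mad2l1 and Bub1b were not. Bub1, a kinase of the kinetochore, had 72.6 and 37.5 CPM in undifferentiated spermatogonia, 98.3 and 98.2 in differentiating spermatogonia, 76.6 and 111.0 in preleptotene and 204.7 and 176.7 in leptotene to zygotene. It had 52.6 and 55.1 in pachytene and 45.7 and 41.8 in Ccna1-high barcodes, then 93.2 and 92.2 in early round, 44.8 and 48.7 in later round and 9.18 and 9.82 in elongating spermatids. Under both marks Bub1 was thus high at the start of prophase, low where Aurka and Plk1 were high, and higher again in early round spermatids. With free RNA subtracted its pooled level in leptotene to zygotene was 290.1 CPM.

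Mad2l1, which encodes the MAD2 protein that binds CDC20, had its highest value in leptotene to zygotene, at 64.5 CPM under each mark, not apart from undifferentiated spermatogonia by the interval of the ratio. It had 52.8 and 48.2 CPM in undifferentiated spermatogonia, 37.5 and 39.0 in differentiating spermatogonia and 44.1 and 47.0 in preleptotene. In pachytene it had 20.8 and 23.2 and in Ccna1-high barcodes 3.70 and 2.43, on 30 and 16 UMIs. From there on it lay between 0.719 and 3.70 CPM, at or below the 3.59 and 5.09 of Sertoli barcodes apart from the Ccna1-high value under mark 1. Its highest pooled level was 73.3 times its lowest, the widest range of the 10 genes; the narrowest was 9.31 times, of Cdc20.

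Bub1b, the BUBR1 gene, had 79.2 and 77.7 CPM in undifferentiated spermatogonia, 90.2 and 68.0 in differentiating spermatogonia, 63.0 and 64.0 in preleptotene, 44.1 and 36.9 in leptotene to zygotene, 61.6 and 54.5 in pachytene and 49.4 and 40.0 in Ccna1-high barcodes. It had 7.68 and 8.21 CPM in early round spermatids and stayed between 4.06 and 4.90 afterwards, below the 20.4 and 16.6 CPM of Sertoli barcodes. Ttk, the kinase that starts the checkpoint, lay between 33.0 and 61.7 CPM in the first 6 stages under either mark, and 5 of the 8 neighbouring pairs in its order of pooled levels had an interval of the ratio that included 1. It had 20.3 and 19.8 CPM in early round and 5.28 and 5.66 in elongating spermatids. Cdc20, the activator of the anaphase-promoting complex, was above the Sertoli level in the pooled counts of every stage up to early round spermatids. It was highest in Ccna1-high barcodes, at 322.3 and 331 CPM, after 235.1 and 248 in pachytene and 203.5 and 184.4 in leptotene to zygotene. Its Sertoli level was 119.2 and 101.8 CPM, close to its 115.5 and 134 in undifferentiated spermatogonia and its 125.1 and 122.4 in early round spermatids.

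**Figure D2:**
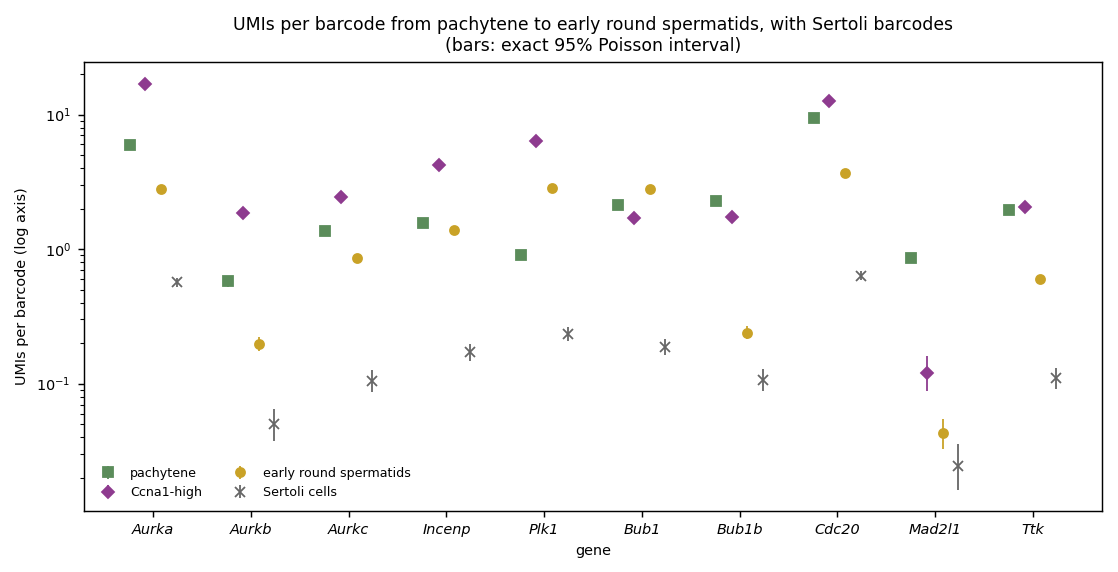
UMIs per barcode of the 10 genes (log axis) in pachytene, Ccna1-high and early round spermatid barcodes and in Sertoli barcodes, both marks pooled, with exact 95% Poisson intervals. Values are not adjusted for depth, with medians of 35751, 28857.5, 24941 and 4636.5 UMIs per barcode in these gates. Aurka goes from 5.89 in pachytene to 17.0 in Ccna1-high barcodes and 2.80 in early round spermatids. From pachytene to Ccna1-high barcodes Mad2l1 goes the other way, from 0.863 to 0.120, and it is not higher in early round spermatids.

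Shares of barcodes with a UMI were compared after each barcode had been thinned to 3000 UMIs, which every barcode of these gates exceeded. Aurka was counted in 271 of 382 Ccna1-high barcodes (70.9%, Clopper-Pearson interval 66.1% to 75.4%), 31.3% of pachytene and 27.6% of Sertoli barcodes. Plk1 was counted in 40.6% of Ccna1-high, 7.63% of pachytene and 11.9% of Sertoli barcodes. Incenp was counted in 39.0% of differentiating spermatogonia and 9.36% of Sertoli barcodes, Aurkb in 17.6% and 2.64% of them, and Bub1 in 39.0% of leptotene to zygotene against 8.64% of Sertoli barcodes. Mad2l1 was counted in 14.6% of leptotene to zygotene barcodes, 0.524% of Ccna1-high and 1.36% of Sertoli barcodes, so its share in Ccna1-high barcodes is background. Aurkc was counted in 16.5% of Ccna1-high, 7.36% of pachytene and 5.73% of Sertoli barcodes, and Cdc20 in 63.9%, 53.3% and 27.5% of them. Bub1b was counted in 21.3% of differentiating spermatogonia, 17.1% of pachytene and 6% of Sertoli barcodes, and Ttk in 16.2%, 11.2% and 5.36%. Without thinning the shares were 99.7% for Aurka and 96.1% for Plk1 in Ccna1-high barcodes, against 40.9% and 20.5% in Sertoli barcodes. The Ccna1-high barcodes were not uniform: their quartiles of Aurka were 8, 12.5 and 23 UMIs, with a highest count of 82.

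Neighbouring stages were then compared. A gene was called higher or lower when the ratio of CPM reached 1.5-fold with the same sign in mark 1 and mark 2, each interval excluded 1, and the higher stage had at least 20 UMIs under each mark. No conditions were tested here, and a call describes a difference between gates. The share of all tested genes is given beside each count of the 10. In bulk sums of this kind, fewer molecules of a gene per cell and fewer cells carrying it cannot be told apart.

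Between the gates of spermatogonia and preleptotene few of the genes were called. Preleptotene and differentiating spermatogonia had like levels of Kit (120 and 126 CPM) and Uchl1 (679 and 661), but not of Stra8 (543 and 25.3). From undifferentiated to differentiating spermatogonia Plk1 alone was called higher, 2.04-fold (1.16 to 3.88) and 1.88-fold (1.07 to 3.48), as 1 of 9 genes tested against 5.72% of all genes, and none was called lower against 3.47%. In preleptotene against differentiating spermatogonia Aurkb was 2.58-fold and 1.59-fold lower, 1 of 9 against 0.737% of all genes, and none was higher against 1.9%. The Aurkb call was lost when only barcodes with at least 8000 UMIs were used (ratios 0.431 and 0.661) and under scaling by the median gene. Aurkc had too few UMIs to be tested in the first 3 comparisons.

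At the start of meiotic prophase Aurkb and Incenp were called lower and Bub1 higher, while Aurkc was not tested. These few calls, 22.2% and 11.1% of the genes tested beside 12.4% and 8.3% of all genes, show no direction of the group. The Incenp and Bub1 calls were lost at a fold of 2. In leptotene to zygotene against preleptotene, Aurkb was 7.65-fold and 5.78-fold lower and Incenp 1.61-fold and 2.59-fold lower, 2 of 9 against 12.4% of all genes. Bub1 was 2.67-fold (2.03 to 3.56) and 1.59-fold (1.19 to 2.13) higher, 1 of 9 against 8.3%. The typical gene, meaning the median over genes with at least 50 UMIs in both stages and so a smaller set than all tested genes, was higher there by 0.15 and 0.19 on the log2 scale, and relative to it Bub1 was 2.40-fold and 1.39-fold higher and missed the call, while Plk1 and Bub1b were also called lower, 4 genes in all. With gate cuts 1.5 times higher the Incenp call was lost, at ratios of 0.781 and 0.481. In preleptotene Plk1 and Cdc20 themselves differed between the marks, with 0.617 (0.423 to 0.896) and 0.624 (0.482 to 0.805) times as much under mark 1 as under mark 2.

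In pachytene against leptotene to zygotene, Aurkc was 4.25-fold (2.14 to 9.88) and 4.84-fold (1.87 to 17.8) higher, 1 of 10 against 14.8% of all genes. Bub1 was 3.89-fold and 3.2-fold lower and Mad2l1 3.09-fold and 2.78-fold lower, 2 of 10 against 19.4%. The Mad2l1 call was lost with Leiden clusters in place of gates, at ratios of 0.475 and 0.573. The typical gene was lower there by 0.38 and 0.23 on the log2 scale. Relative to it, Aurka (2.41-fold and 1.52-fold), Bub1b and Cdc20 were also called higher, which gives 4 higher and 2 lower, while all genes went from 14.8% higher and 19.4% lower to 21% and 15.7%. With gate cuts 1.5 times higher the Aurkc call was lost, at 3.29-fold and 2.52-fold, where leptotene to zygotene held 114 in place of 164 barcodes.

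Within the pachytene gate the genes already differed. Pou5f2 is a listed pachytene marker that no gate used, and the gate was split at 1.5 Pou5f2 UMIs per 10000 after the values had been seen. Aurka had 105.7 and 121.9 CPM in the 559 Pou5f2-low barcodes and 215.5 and 202.6 in the 188 Pou5f2-high barcodes. Aurkb had 6.58 and 4.88 against 31.9 and 26.4 CPM, Aurkc 21.6 and 20.7 against 59.1 and 54.5, and Mad2l1 28.0 and 27.4 against 12 and 12. Cdc20 had 238.5 and 257.6 against 231 and 221.8 and so did not follow them. In Pou5f2-low barcodes Aurkb lay at or below the 8.08 and 9.51 CPM of Sertoli barcodes, and Aurkc close to their 19.2 and 17.7. Pou5f2-high barcodes were deeper, with a median of 60986.5 against 31473 UMIs, and had more Ccna1, at 124 against 39.6 CPM. The part of depth and of Ccna1-high cells within the gate was not tested.

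Between pachytene and Ccna1-high barcodes the Aurora kinases, Incenp and Plk1 were higher, 5 of 10 genes called against 14.4% of all genes. Plk1 was 7.60-fold (6.75 to 8.58) and 6.73-fold (5.94 to 7.63) higher. Aurka was 2.78-fold and 3.17-fold higher, Aurkb 2.54-fold and 4.88-fold, Incenp 2.55-fold and 3.11-fold, and Aurkc 1.55-fold and 2.26-fold. Of the checkpoint genes and Cdc20 none was called higher: Ttk stood at ratios of 1.05 and 1.10, Bub1 at 0.868 and 0.758, Bub1b at 0.801 and 0.734, and Cdc20 at 1.37 and 1.33. Mad2l1 was 5.64-fold and 9.56-fold lower, the only gene called lower, 1 of 10 against 31.2%. The median log2 ratio of the 10 was 0.55 and 0.80, and that of all tested genes was -0.20 and -0.30. The ratios of Aurkb start from unequal pachytene levels, 1.69 times (1.37 to 2.08) as high under mark 1 as under mark 2. The Aurkc call was lost with Leiden clusters in place of gates, at 1.29-fold and 1.99-fold.

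**Figure D3:**
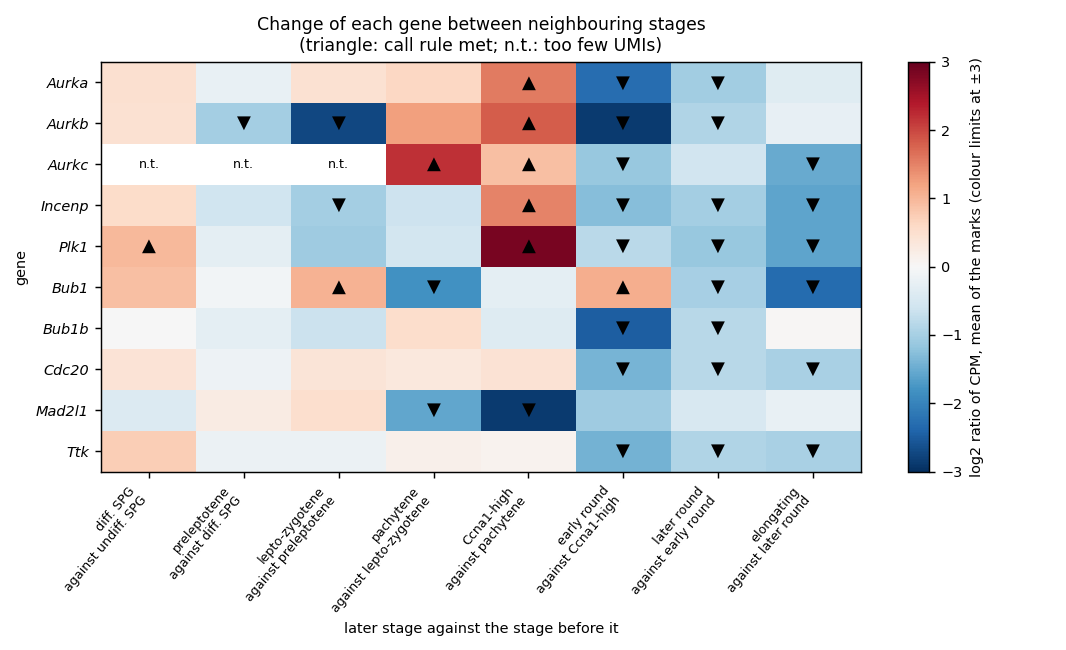
Log2 ratio of CPM of each gene in a stage against the stage before it, averaged over the marks, red for higher and blue for lower, with colours limited at 3 and n.t. for too few UMIs; triangles mark calls. The Ccna1-high column has 5 upward triangles and 1 downward, and the early round column has 8 downward and 1 upward, for Bub1.

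After this point all but Bub1 and Mad2l1 were called lower. In early round spermatids against Ccna1-high barcodes, 8 of 10 genes were called lower against 28% of all genes. Aurkb was 6.80-fold and 7.89-fold lower, Bub1b 6.43-fold and 4.87-fold, Aurka 5.13-fold and 4.59-fold, and Cdc20, Ttk, Incenp and Aurkc between 2.05-fold and 2.70-fold under either mark. Plk1 was 1.75-fold lower under each mark, and relative to the typical gene, itself lower by 0.32 and 0.38 on the log2 scale, it missed the call. Bub1 was 2.04-fold (1.82 to 2.29) and 2.21-fold (1.95 to 2.51) higher, 1 of 10 against 28.3%. Mad2l1, at 1.41 and 1.43 CPM, was not called. The median log2 ratio of the 10 was -1.38 and -1.32, against -0.15 and -0.13 for all genes tested, a wider set than the typical gene is taken from.

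Lower levels followed in the spermatids. In later against early round spermatids 8 of 10 genes were lower, by 1.57-fold to 2.29-fold under either mark, against 16.3% of all genes, and none was higher against 18%. Aurkc, at ratios of 0.662 and 0.682, was not called. The typical gene was lower by 0.26 and 0.23 on the log2 scale, and relative to it 6 of the 10 remained called lower against 7.88% of all genes, without Bub1b and Ttk. In elongating against later round spermatids 6 genes were lower, led by Bub1 at 4.87-fold and 4.96-fold, against 54.4% of all genes, and none was higher against 11%. The typical gene was lower there by 0.99 and 1.08 on the log2 scale. Relative to it only Bub1 was called lower, against 23.4% of all genes, and Aurka, Aurkb and Bub1b were called higher, against 31.1%. The share called lower at first, 60% against 54.4%, and that called higher after scaling, 30% against 31.1%, were near those of all genes. No direction of the group is read from them. With totals without elongating spermatid markers, 0 genes were higher and 4 lower, against 15.4% and 43.6% of all genes.

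The wider list of spindle and checkpoint genes held 62 genes in the table. It covers partners of the Aurora kinases, other checkpoint and kinetochore genes, the anaphase-promoting complex, further Polo kinases and spindle motors, and does not include the 10. Of the 62, 25 were highest in differentiating spermatogonia, 10 in leptotene to zygotene, 9 in Ccna1-high barcodes and 7 in pachytene. Among the 60 with at least 200 UMIs over the stages, 40% were highest in differentiating spermatogonia against 11.1% of the 14237 genes with that many UMIs, 16.7% against 11.2% in leptotene to zygotene, 15% against 15.1% in Ccna1-high barcodes and 11.7% against 12.1% in pachytene. The Ccna1-high maximum of Aurka, Aurkc, Plk1 and Cdc20 was shared by Birc5 and Haspin of the passenger pathway, Sgo2a (shugoshin), Mad2l2, Mad2l1bp, Nuf2, Cdc27, Fzr1 and Ube2s.

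In differentiating against undifferentiated spermatogonia 11 of 53 listed genes (20.8%) were higher, against 5.72% of all genes, and none lower. They were led by Fbxo5 (EMI1, an inhibitor of the anaphase-promoting complex), with 19.8 and 2.68 CPM against 60.8 and 47.8, the 2.68 being 1 UMI, so that the ratio under mark 2 of 17.9 has an interval from 3.02 to 724. Kif4, a chromosome motor, was 2.61-fold and 3.67-fold higher and Spc24, of the NDC80 kinetochore complex, 3.58-fold and 2.62-fold. In preleptotene Sgo1, a protector of centromeric cohesion, was the 1 gene of 54 called lower (1.85% against 0.737% of all genes), by 1.54-fold and 1.70-fold, and none was higher.

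At leptotene to zygotene 2 of 54 were higher and 5 lower, 3.7% and 9.26% against 8.3% and 12.4% of all genes. Ube2s, a conjugating enzyme of the anaphase-promoting complex, was 2.10-fold and 2.14-fold higher and Nuf2, a partner of NDC80, 1.70-fold and 1.92-fold. Cdc23, a subunit of the complex, was 3.2-fold and 3.03-fold lower, Sgo1 3.14-fold and 2.34-fold, and Trip13, which remodels MAD2 and HORMA-domain proteins, 3.13-fold and 1.91-fold. In pachytene 7 of 59 were higher and 22 lower, 11.9% and 37.3% against 14.8% and 19.4% of all genes. Mad2l2 was 4.85-fold and 4.46-fold higher, Fbxo43 (EMI2) 4.39-fold and 2.53-fold and Meikin, of meiotic kinetochores, 2.94-fold and 2.43-fold. Fbxo5 was 29.1-fold and 19.7-fold lower, Kif23, a cytokinesis motor, 6.33-fold and 6.55-fold, and Spc25, of the NDC80 complex, 7.35-fold and 4.05-fold.

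In Ccna1-high barcodes 12 of 58 were higher and 20 lower, 20.7% and 34.5% against 14.4% and 31.2% of all genes, so the share that was lower was near that of all genes. Spc25 was 5.85-fold and 5.00-fold higher, Kif23 4.20-fold and 3.62-fold and Ube2c, a conjugating enzyme of the anaphase-promoting complex, 3.81-fold and 3.46-fold, each from a low level in pachytene. Anapc4, a subunit of that complex, was 18.3-fold and 20.7-fold lower, Sgo1 6.03-fold and 8.34-fold and Nsl1, of the MIS12 kinetochore complex, 4.51-fold and 6.93-fold.

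From Ccna1-high barcodes to early round spermatids 35 of 59 were lower and 2 higher, 59.3% and 3.39% against 28% and 28.3% of all genes. Cdca8 (borealin, of the passenger complex) was 11-fold and 10.2-fold lower, Fbxo43 14.6-fold and 7.35-fold and Cep192, a centrosome protein, 7.98-fold and 8.96-fold. Cdc16, a subunit of the anaphase-promoting complex, was 5.91-fold and 4.31-fold higher and Meikin 1.71-fold and 1.67-fold. In later round spermatids 3 of 59 were higher and 21 lower, 5.08% and 35.6% against 18% and 16.3%. Trip13 was 2.79-fold and 2.67-fold, Kif2c, a microtubule depolymerase, 2.28-fold and 2.19-fold and Cdc16 1.97-fold and 1.85-fold higher. Kif4 was 4.53-fold and 3.87-fold lower, Cdc23 2.69-fold and 4.46-fold and Kif20a, a cytokinesis motor, 2.47-fold and 2.68-fold. In elongating spermatids 31 of 57 were lower, the same 54.4% as of all genes, and 1 was higher, Kif2c at 4.64-fold and 4.90-fold, against 11%. The lower genes were led by Ect2 at 6.21-fold and 6.78-fold, Zw10 at 6.05-fold and 6.81-fold and Bora, a cofactor of Aurora A, at 5.04-fold and 4.78-fold. With scaling by the median gene that split became 22 higher and 9 lower. Scaled in this way the list had 5 higher and 28 lower in early round spermatids, 5 and 14 in later round spermatids, 12 and 14 in pachytene and 2 and 10 in leptotene to zygotene. All genes then had 34.2% higher and 18.4% lower in early round spermatids, 22.7% and 7.88% in later round spermatids and 4.96% and 17.2% in leptotene to zygotene.

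**Figure D4:**
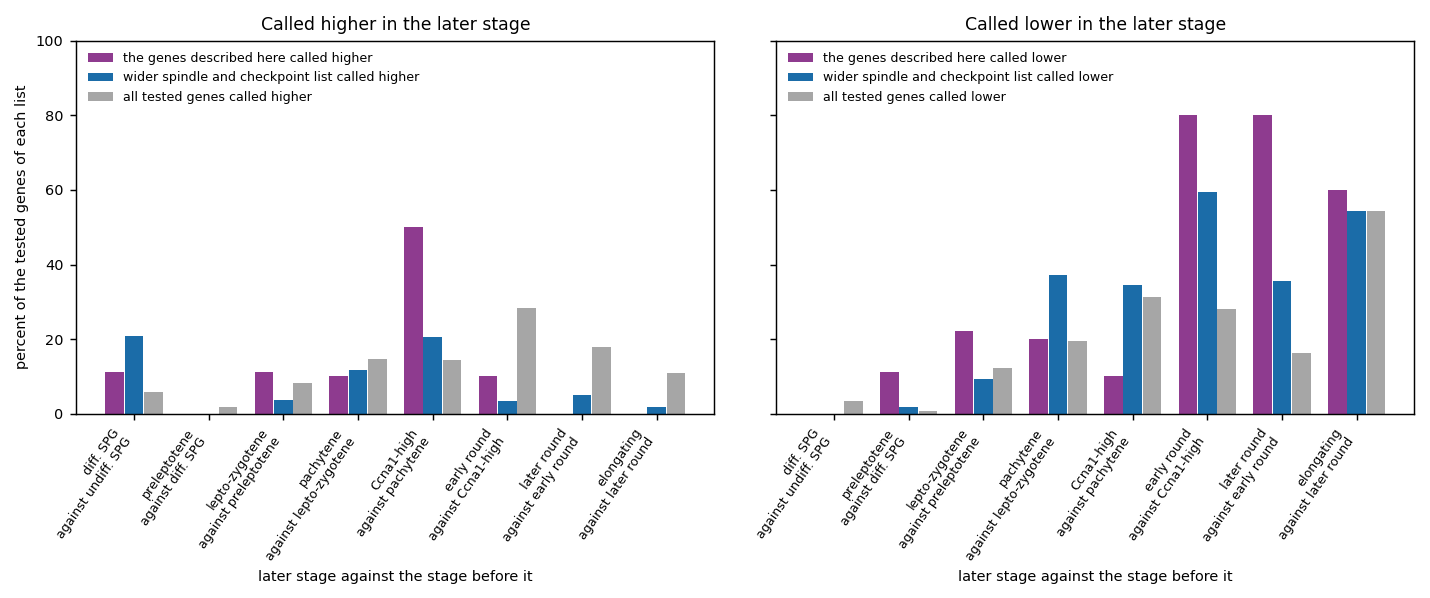
Percent of tested genes called higher (left) and lower (right) in each stage against the stage before it, for the 10 genes, for the wider list of 62 genes and for all genes, on axes from 0 to 100%. The bar of the 10 genes called higher reaches 50% in Ccna1-high barcodes against 14.4% for all genes, and that called lower 80% in early and in later round spermatids.

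Likeness of pattern was described by Pearson's r of log2(CPM + 10) over 18 points, 9 stages under 2 marks, which share libraries and gates, among 14237 genes with at least 200 UMIs. Of the 45 pairs among the 10 genes, Aurkb and Incenp were most alike (r = 0.900), followed by Cdc20 and Ttk (0.897) and Bub1b and Ttk (0.896). Aurkc and Mad2l1 were least alike (r = -0.53). Over all genes, Incenp was most like Cenpe (0.975), which encodes a kinetochore motor, Rfc1 (0.956) and Psph (0.954). Plk1 was most like Kif18b (0.953), a microtubule motor, Crk (0.943) and Ccnb1 (0.942), which encodes cyclin B1. Aurkb was most like Klhl21 (0.958), an adaptor of the ubiquitin ligase that acts on Aurora B, Rab33b (0.945) and Cdca5 (0.941), which encodes sororin, a cohesion factor.

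The nearest patterns to the other genes came from varied genes. Aurka was most like Slc22a21 (0.958), Flywch1 (0.955) and Tarbp2 (0.955), and Aurkc most like Abca14 (0.971), Vit (0.968) and 4930522O17Rik (0.966). Bub1 was most like Efr3a (0.948), Atl2 (0.945) and Stip1 (0.937), and Bub1b most like Elac2 (0.985), Cnot9 (0.985) and Sae1 (0.983). Cdc20 was most like Srp14 (0.980), Strada (0.966) and Qrich1 (0.963), Mad2l1 most like Nbeal1 (0.995), Esf1 (0.995) and Ttc3 (0.994), and Ttk most like Smc6 (0.982), Polg (0.975) and Trp53i13 (0.975).

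The marks themselves were set side by side within each stage, as 2 sets of barcodes and not as genotypes. Of 90 pairs of a gene and a stage, 81 had at least 20 UMIs under 1 of the marks and 3 differed at least 1.5-fold with an interval that excluded 1. These were Plk1 and Cdc20 in preleptotene, where 5.05% of all genes did, and Aurkb in pachytene, where 8.71% did. In the other stages none of the genes did, against 5.7% of all genes in undifferentiated and 7.61% in differentiating spermatogonia, 3.87% in leptotene to zygotene, 3.35% in Ccna1-high barcodes, 2.57% in early round, 3.21% in later round and 4.34% in elongating spermatids. The Pou5f2-high part made up 115 of 366 pachytene barcodes under mark 1 and 73 of 381 under mark 2, and Aurkb was higher in that part under both marks. Whether this has to do with the Aurkb difference between the marks was not tested.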

How the data were processed

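The authors deposited raw counts: the table gives for every gene the number of UMIs in each barcode, in whole numbers with unequal totals. Cell Ranger 1.3.1, Seurat 3.2.2 and the build GRCm38 are named in the submitters' processing notes. How barcodes were filtered is not given there. The members and gene lists were chosen with earlier results of these data known, and the gate cuts were set after marker values, but not values of the 10 genes, had been seen. Germ cell gates used barcodes with at least 6000 UMIs and summed marker UMIs per 10000, and barcodes that passed a somatic gate were left out of germ stages; 16908 barcodes (59.9%) entered no gate. Doublets were not called. UMIs were summed per gate and mark and divided by the gate's total. Levels have exact Poisson intervals, shares Clopper-Pearson intervals and ratios exact conditional binomial intervals, at 95%. The cuts, in marker UMIs per 10000, were 6 for spermatogonia (with 4 or more markers, and undifferentiated where 3 or more of their own markers were counted), 3 for preleptotene, 25 of axis markers and 2.5 of zygotene markers, 6 for pachytene, 2.5 of Ccna1 and 6 of its set for Ccna1-high, 18 for round spermatids, with 12 of Prm3, Spam1 and Hemgn for the later ones, 1500 for elongating spermatids and 15 for Sertoli cells. All earlier stages needed elongating spermatid markers under 300 or 400, later round ones under 700. PCR duplicates are collapsed by the UMIs, and intervals and floors cover counting error only.

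Total UMIs were 158740437 under mark 1 and 168967776 under mark 2, over 12935 and 15310 barcodes. The planned comparison of genotypes was not made, because the marks could not be mapped. Named genes were the 10 members, up to 3 called genes of the wider list of largest mean log2 ratio per comparison and direction, and the 3 genes of most alike pattern per member; Ccna1, Pou5f2 and genes listed by stage of highest level were named after their values had been seen. Of the 65 symbols of the wider list, 62 were found in the table by name. The call rule was tested on simulated data. Motifs were counted in the RefSeq promoter table of GRCm38.p6. Alternatives were a fold of 2, cuts 1.5 times higher, at least 8000 UMIs, scaling by the median ratio, totals without elongating spermatid markers, free RNA subtracted, Leiden clusters (leidenalg 0.10.2, resolution 4, 30 components, 15 neighbours, 2000 variable genes without the members or the list), barcodes in 2 gates left out, means of barcode CPM, shares without thinning and each mark alone; the split of pachytene on Pou5f2 was added after seeing the data. Python 3.11.15, NumPy 2.4.6 and SciPy 1.17.1 were used.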

Additional observations from a re-analysis of the deposited data

How the results depend on the processing

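No paired analysis was possible because there is 1 library per genotype and the marks are not mapped to them. Of 37 calls among the 10 genes, 23 held at a fold of 2, 33 with cuts 1.5 times higher, 36 with at least 8000 UMIs, 27 under median scaling, 35 with totals without elongating spermatid markers, 33 of 35 with free RNA subtracted, 37 without barcodes in 2 gates and 28 of 32 with Leiden clusters, which gave no differentiating spermatogonia or preleptotene class and so no value for 3 comparisons. With free RNA subtracted, Aurkb and Aurkc had 0 left in leptotene to zygotene under mark 1 and, for Aurkc, mark 2, so 2 ratios have no value. In elongating against later round spermatids, median scaling turned the mean log2 ratio of Cdc20 to 0.051 and of Ttk to 0.050, and gave 3 members higher and 1 lower. Members higher became 0 in differentiating spermatogonia at a fold of 2. In leptotene to zygotene members higher became 0 at a fold of 2, 2 with higher cuts and 0 under median scaling, and members lower became 1 at a fold of 2, 1 with higher cuts, 4 with at least 8000 UMIs and 4 under median scaling. In pachytene members higher became 0 with higher cuts, 4 under median scaling, 2 with free RNA subtracted and 5 with Leiden clusters, and members lower 1 with Leiden clusters. In preleptotene members lower became 0 at a fold of 2, with at least 8000 UMIs and under median scaling, and in later round spermatids 2 at a fold of 2. Genes of the wider list over all 8 comparisons were 38 higher and 135 lower, against 25 and 83 at a fold of 2 and 68 and 94 under median scaling. These totals have no share of all genes beside them, so no direction of the list is read from them. Of the lower calls, 31 were in elongating spermatids, at the same 54.4% as of all genes. The causes were not tested. The highest stage was that of the pooled counts for 9 of 10 genes under mark 1 alone, all but Ttk, and for 9 under mark 2 alone, all but Bub1b. Depth limits the spermatogonia: with 20 and 29 barcodes, undifferentiated spermatogonia gave 10 to 50 UMIs per mark for 9 genes and 3 for Aurkc.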
